A study of Mus musculus with 12 samples.

Results

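Interleukin-6 and its relatives, their receptor chains and the transcription factor they act through were followed here as 9 genes, namely the ligands Il6, Il11, Osm and Lif, the receptor chains Il6ra, Osmr and Il6st, the transcription factor Stat3 and its inhibitor Socs3. They were taken by symbol from 19935 genes measured on the same arrays, and all 9 were measured, 8 by 1 probe set and Socs3 by 2. The study set mice with a claudin-2 transgene under stress from dextran sulfate sodium (DSS), a polymer that injures the colon lining, against wild-type littermates. The 4 groups of 3 Affymetrix arrays were transgenic mice given 4% DSS (TG DSS), wild-type mice given 4% DSS (WT DSS), transgenic mice on plain water (TG water) and wild-type mice on plain water (WT water). TG mice carried Villin-Claudin-2 (Cl-2TG), a transgene whose name joins villin, found in the brush border of gut epithelium, with claudin-2, the tight junction channel for small cations and water. Every mouse was male and 8 to 10 weeks old, and water or DSS was given for 10 days. RNA was labelled as coming from colon epithelial cells, and whether each array held 1 animal is not labelled, so the p-values reflect spread among samples that may be partly technical.

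Interleukin-6 binds its private receptor chain, Il6ra, and then the chain encoded by Il6st, which the ligands followed here share. Janus kinases bound to the receptors phosphorylate STAT3, which enters the nucleus and switches on genes, among them Socs3, whose product blocks the receptor and its kinases in turn. In the colon the pathway is known for driving epithelial repair and antimicrobial proteins after injury, while Il6, Il11 and Osm come largely from immune and stromal cells. The arrays measured RNA only, so STAT3 phosphorylation was not seen.

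Signals are given on the log2 scale with the 12-array median of each probe set at 0. Values compare arrays for 1 gene, and levels of different genes cannot be set against each other. Differences are log2 differences between group means, tested with limma over all genes. The value after ± is the limma standard error (SE). Its spread is estimated over all 4 groups, and not from the compared arrays alone. Genes are said to pass where the p adjusted over all genes was under 0.05.

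The arrays under DSS differed from one another. Of 28815 probe sets, 53 to 285 departed by more than 1 log2 unit from the 12-array median in the TG DSS arrays, against 677, 3795 and 1035 in WT DSS replicates 1 to 3 and 22 to 91 in the water arrays. Because the deposited values hold no absolute level, the labelled cell type could be checked only by comparing arrays. The median of 10 pan-epithelial genes such as Epcam and Cdh1 was -2.13 in WT DSS replicate 2 and between -0.19 and 0.11 in each of the other 11 arrays. In such bulk RNA, fewer cells of a type and less RNA per cell cannot be told apart.

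Promoter windows of 300 bases, from 250 before to 50 after the RefSeq start, were at hand for 8 of the 9 genes (RefSeq, GRCm38.p6). They were searched on both strands for the STAT motif TTCNNNGAA, the AP-1 motif TGANTCA and an NF-kB motif that matches GGGATTTTCC with any base at the fourth and the fifth position. Matches of different motifs did not overlap. AP-1 and NF-kB are transcription factors switched on by injury and microbial signals. The 250 bases before the start are shown for the 3 members with the largest DSS differences in WT that hold a match there, with the matches in capitals.
Il6 (chr5:30012864-30013113, plus strand): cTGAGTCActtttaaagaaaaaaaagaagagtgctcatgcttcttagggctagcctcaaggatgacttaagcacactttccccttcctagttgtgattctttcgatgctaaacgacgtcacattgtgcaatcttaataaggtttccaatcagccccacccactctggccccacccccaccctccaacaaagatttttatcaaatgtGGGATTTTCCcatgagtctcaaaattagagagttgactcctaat
Il11 (chr7:4778142-4778391, minus strand): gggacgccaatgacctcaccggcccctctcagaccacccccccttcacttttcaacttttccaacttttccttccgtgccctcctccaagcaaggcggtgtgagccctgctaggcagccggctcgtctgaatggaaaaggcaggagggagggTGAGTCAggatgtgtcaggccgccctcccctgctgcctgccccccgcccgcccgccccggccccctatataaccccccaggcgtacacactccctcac
Socs3 (chr11:117969367-117969616, minus strand): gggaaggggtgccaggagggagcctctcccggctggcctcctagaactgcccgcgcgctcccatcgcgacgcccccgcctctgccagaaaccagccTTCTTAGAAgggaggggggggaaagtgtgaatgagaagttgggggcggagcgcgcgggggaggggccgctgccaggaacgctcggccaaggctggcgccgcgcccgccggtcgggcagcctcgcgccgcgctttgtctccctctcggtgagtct
In the Socs3 window the STAT match began 154 bases before the start, and none of the other 7 genes held these letters. The Il6 window held an AP-1 match 249 bases and an NF-kB match 44 bases before the start. One of the 2 windows of Il11 held an AP-1 match 98 bases before the start, Lif had an AP-1 match 228 bases before it and Osmr had one just after it. Of all 32851 windows, 8.3% held the STAT motif, 7.81% the AP-1 motif and 1.63% the NF-kB motif. Counted by gene, with a match in any window of the gene, the shares were 9.55%, 8.97% and 1.89% of 27025 genes. A match describes the letters of the window and says nothing of binding.

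All 9 members had a higher mean in WT DSS than in WT water, and for 7 of them the 3 WT DSS arrays lay above all 3 WT water arrays. No member passed in limma in any of the 5 comparisons. In WT the 9 differences had a median of 1.26, beside -0.04 over all genes, and 6 members (Il6, Il11, Osm, Osmr, Stat3 and Socs3) had an unadjusted p under 0.05. Among all genes, 0.171% passed, 5.7% had a positive difference with an unadjusted p under 0.05 and 5.45% had WT DSS arrays above every WT water array. Differences above 0 were found for 40.6% of all genes. In TG the DSS differences had a median of 0.28, beside -0.01 over all genes, and 7 of 9 were above 0, as were 46.2% of all genes. There 0 members had an unadjusted p under 0.05, where 2.38% of all genes did and 0% passed, and 2 of the 9, Stat3 and Socs3, had TG DSS arrays above every TG water array, as did 6.76% of all genes. TG minus WT under DSS was below 0 for all 9, with a median of -0.99, while 57.9% of all genes were above 0, and this comparison shares its WT DSS arrays with the first one.

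**Figure D1:**
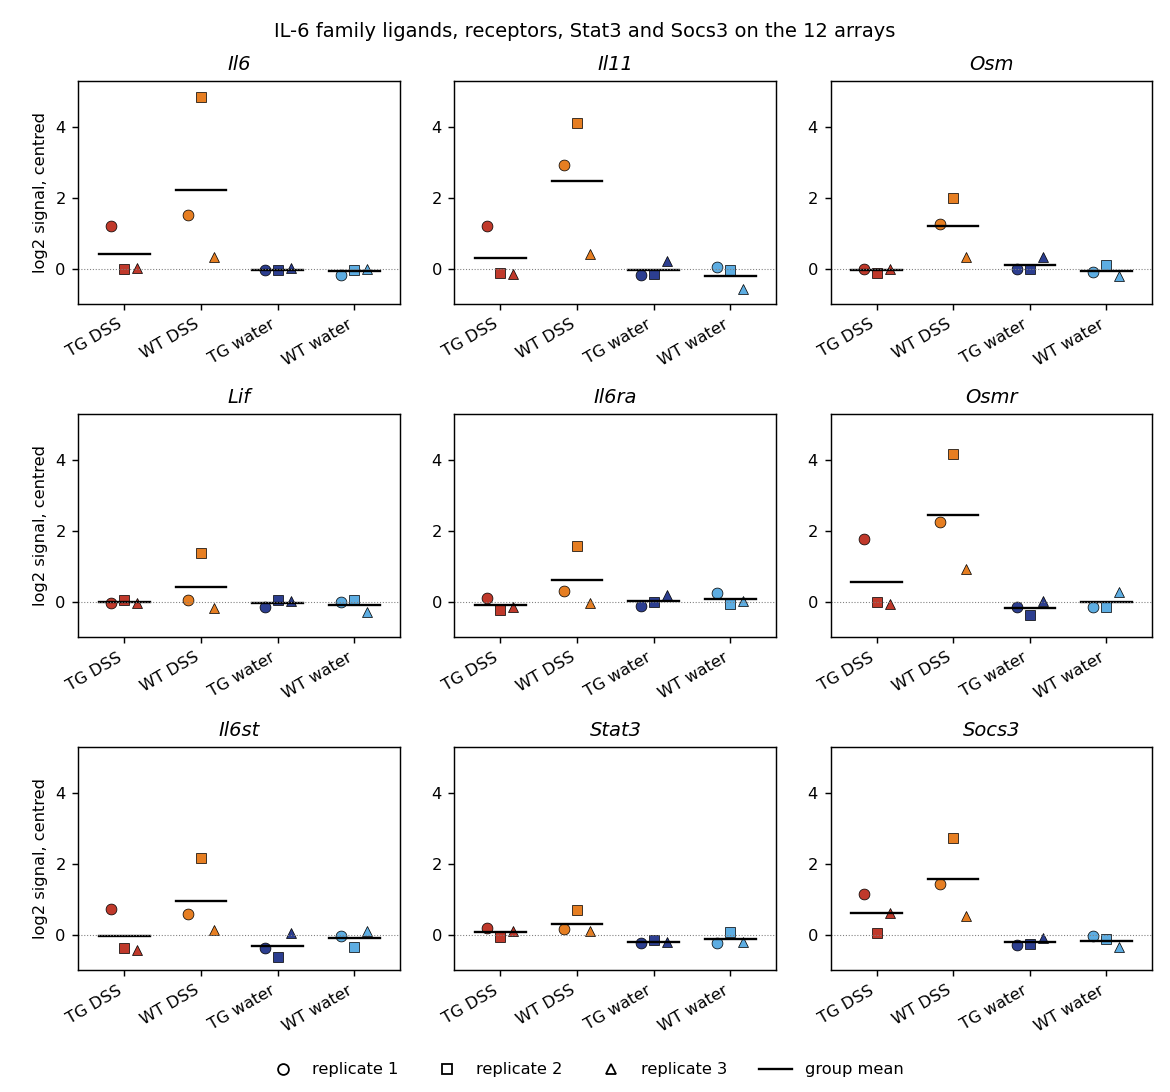
Each panel shows 1 gene, with the centred log2 signal on the vertical axis and the groups along the horizontal axis; points are arrays, their shape gives the replicate number and bars are group means. WT DSS replicate 2 was the highest of the 12 arrays for all 9 genes, reaching 4.85 for Il6, while the 6 water arrays stayed between -0.63 and 0.32.

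Among the ligands, Il6, the inflammatory cytokine that names the family, read 1.51, 4.85 and 0.33 in WT DSS replicates 1 to 3, against -0.18, -0.04 and -0.01 in WT water. Each WT DSS array was above every WT water array, yet they spanned more than 4 log2 units among themselves. The difference was 2.31 ± 0.89 (SE, 3 arrays a group; 4.95-fold), with a limma adjusted p of 0.268. In TG, Il6 read 1.20, -0.02 and 0.02 under DSS and -0.05, -0.04 and 0.01 on water, so TG DSS replicate 1 stood alone and the groups overlapped.

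Il11, a cytokine of stromal cells that acts on epithelial repair and fibrosis, had the largest DSS difference of the members in WT. It read 2.92, 4.10 and 0.42 in WT DSS replicates 1 to 3 and 0.04, -0.04 and -0.59 in WT water, without overlap. The difference was 2.68 ± 0.76 (SE, 3 arrays a group; 6.39-fold; limma adjusted p = 0.155), the 41st largest increase of the 19935 genes. TG DSS replicates 1 to 3 gave 1.19, -0.14 and -0.15, against -0.19, -0.16 and 0.20 in TG water, again with replicate 1 alone above the water arrays.

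Osm, oncostatin M, a product of neutrophils and macrophages, read 1.27, 1.98 and 0.33 in WT DSS replicates 1 to 3, against -0.09, 0.11 and -0.21 in WT water. Its difference of 1.26 ± 0.32 (SE, 3 arrays a group; 2.39-fold) had the smallest limma adjusted p of the members in WT, 0.127. All 3 WT DSS arrays lay above water, while TG DSS replicate 1 did not stand out from its group. The TG DSS arrays read 0.00, -0.12 and 0.00 and the TG water arrays 0.00, -0.01 and 0.32.

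Lif, leukaemia inhibitory factor, is the gene next to Osm in the RefSeq order of the chromosome. It read 0.05, 1.36 and -0.17 in WT DSS replicates 1 to 3, against -0.01, 0.04 and -0.29 in WT water. Only WT DSS replicate 2 stood apart, and without it the WT difference was 0.02, against 0.50 ± 0.32 with all arrays (SE, 3 arrays a group; limma adjusted p = 0.484). The TG DSS arrays lay between -0.04 and 0.04 and the TG water arrays between -0.15 and 0.05.

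Of the receptor chains, Osmr, which pairs with Il6st to bind oncostatin M, differed most. It read 2.26, 4.17 and 0.93 in WT DSS replicates 1 to 3 and -0.14, -0.16 and 0.26 in WT water, without overlap, a difference of 2.47 ± 0.71 (SE, 3 arrays a group; 5.53-fold; limma adjusted p = 0.162). In TG it read 1.76, -0.01 and -0.07 under DSS and -0.15, -0.39 and 0.01 on water. TG DSS replicate 1 thus lay above WT DSS replicate 3, as it did for every member but Osm, although the WT DSS mean was the higher one.

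Il6st, the chain shared by the family, read 0.58, 2.18 and 0.12 in WT DSS replicates 1 to 3 and -0.05, -0.36 and 0.10 in WT water. The groups were apart by a narrow margin, 0.12 against 0.10 at the nearest arrays, and the difference was 1.06 ± 0.49 (SE, 3 arrays a group; limma adjusted p = 0.337). TG DSS replicate 1 stood at 0.72 beside -0.39 and -0.44 in replicates 2 and 3, with TG water arrays at -0.37, -0.63 and 0.05.

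Il6ra, the private chain for interleukin-6, read 0.29, 1.58 and -0.03 in WT DSS replicates 1 to 3, against 0.23, -0.07 and 0.02 in WT water. The groups overlapped and the difference was 0.56 ± 0.33 (SE, 3 arrays a group; limma adjusted p = 0.455), or 0.07 without WT DSS replicate 2. The TG DSS values of 0.10, -0.24 and -0.14 also overlapped the TG water values of -0.12, -0.02 and 0.19.

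Stat3, the transcription factor, spanned less than 1 log2 unit over the 12 arrays. Its values were 0.15, 0.69 and 0.09 in WT DSS replicates 1 to 3 and -0.24, 0.07 and -0.21 in WT water, a difference of 0.43 ± 0.16 (SE, 3 arrays a group; 1.35-fold; limma adjusted p = 0.24). In TG it read 0.20, -0.07 and 0.11 under DSS, each above the water values of -0.23, -0.15 and -0.21, and the difference was 0.28 ± 0.16 (limma adjusted p = 1).

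Socs3, the feedback inhibitor, was the other member whose DSS arrays lay above water in both genotypes. It read 1.42, 2.74 and 0.52 in WT DSS replicates 1 to 3 and -0.05, -0.12 and -0.36 in WT water, a difference of 1.74 ± 0.46 (SE, 3 arrays a group; 3.34-fold; limma adjusted p = 0.136). TG DSS replicates 1 to 3 read 1.14, 0.05 and 0.62, against -0.28, -0.27 and -0.10 in TG water, a difference of 0.82 ± 0.46 (limma adjusted p = 1) and the 58th largest of all genes in TG. In TG DSS replicate 3 the centred signal of Socs3 ranked 56th of all genes. That rank orders departures from each gene's own median over all arrays, and not levels. On the same array Il6, Il11, Osm and Osmr lay between -0.15 and 0.02.

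The 2 probe sets of Socs3 agreed in direction and not in size. One read 2.23, 3.73 and 0.89 in WT DSS replicates 1 to 3 and -0.09, -0.13 and -0.33 in WT water, a difference of 2.47 ± 0.61. The other read 0.61, 1.76 and 0.16 in WT DSS, against -0.02, -0.10 and -0.39 in WT water, a difference of 1.01 ± 0.33 (SE, 3 arrays a group for both; limma adjusted p = 0.129 and 0.219 over all probe sets). The mean of both was used throughout, and both had TG DSS arrays above all TG water arrays.

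Set against each other under DSS, TG was lower than WT in the mean of every member, by amounts that did not pass. Osm was the member without overlap, with TG DSS values of 0.00, -0.12 and 0.00, against 1.27, 1.98 and 0.33 in WT DSS, and the difference was -1.24 ± 0.32 (SE, 3 arrays a group; limma adjusted p = 0.137). Among all genes 4.9% had TG DSS arrays below every WT DSS array and 0.0401% passed. Il11 differed by -2.18 ± 0.76, Osmr by -1.90 ± 0.71 and Il6 by -1.83 ± 0.89 (limma adjusted p = 0.216, 0.245 and 0.336). Osm, Il11 and Osmr had an unadjusted p under 0.05 in this comparison, as 5.63% of all genes did in the same direction. Socs3 differed by -0.96 ± 0.46, and TG DSS replicates 1 and 3, at 1.14 and 0.62, lay above WT DSS replicate 3 at 0.52. Without WT DSS replicate 2 the differences were -1.37 for Il11, -1.04 for Osmr, -0.52 for Il6, -0.84 for Osm and -0.37 for Socs3, and that of Lif was 0.05. Stat3 differed least with all arrays, by -0.23 ± 0.16 (limma adjusted p = 0.48), with a 95% interval from -0.58 to 0.12.

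**Figure D2:**
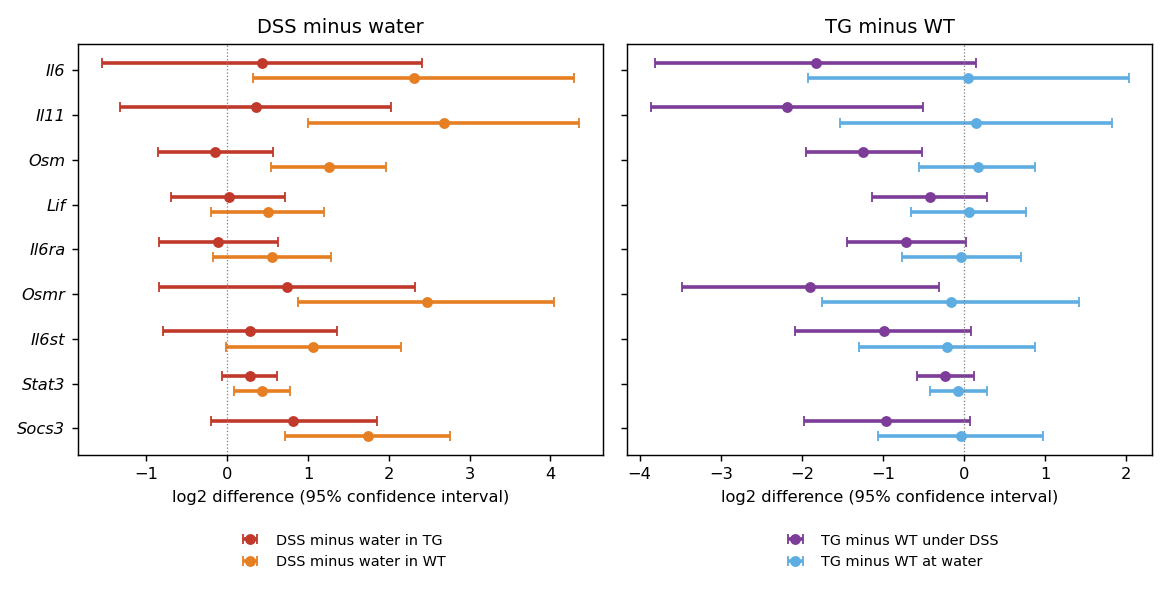
The left panel gives DSS minus water in TG and in WT and the right panel TG minus WT under DSS and at water, as log2 differences with 95% confidence intervals from limma on the horizontal axis and 1 gene per row. In WT the intervals of Il6, Il11, Osm, Osmr, Stat3 and Socs3 lie above 0 before adjustment over all genes, and in TG every interval spans 0. All intervals use a spread estimated over all 4 groups, so those for TG also carry the spread of the WT DSS arrays.

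Whether the DSS change itself differed between genotypes was tested as the interaction, in which the change in WT is subtracted from the change in TG. No member passed, and the limma adjusted p-values lay between 0.798 and 0.9. The estimates were below 0 for all 9 members, where 52.2% of all genes were above 0, and ran from -2.33 ± 1.07 for Il11 to -0.16 ± 0.22 for Stat3. Osm, at -1.40 ± 0.45, was the 1 member with an unadjusted p under 0.05, beside 1.27% of all genes in that direction and 0% that passed. The interval for Il11 ran from -4.71 to 0.05 and that for Socs3 from -2.36 to 0.53, so similar and much smaller changes in TG both lay within them.

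On water the genotypes could not be separated for any member. The differences of TG minus WT lay between -0.21 for Il6st and 0.17 for Osm, 0 members passed in limma or had an unadjusted p under 0.05, and all limma adjusted p-values were 1. All 9 members overlapped between the groups, where 4.98% of all genes did not, 0.306% had an unadjusted p under 0.05 and 0% passed. The spread was estimated over all 4 groups, and for Il6 the interval ran from -1.93 to 2.03.

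The WT differences drew on WT DSS replicate 2. It was the highest of all 12 arrays for 9 of 9 members, as it was for 22% of all genes. Without it the WT difference was 0.99 ± 0.38 for Il6, 1.87 ± 0.63 for Il11, 0.86 ± 0.23 for Osm, 1.61 ± 0.53 for Osmr and 1.15 ± 0.31 for Socs3, each still above 0, with limma adjusted p-values between 0.138 and 0.29. WT DSS replicate 1 also lay above every WT water array for 9 of 9 members and replicate 3 for 7 of 9, where 20.6% and 25% of all genes did. WT DSS replicate 3 had the lowest value of its group for all 9 members, so leaving it out raised every WT difference. For Il11, Osm, Osmr and Socs3 the standard errors shrank as well, as they did for Il6, Il6st, Lif and Il6ra. Il11, Osm, Osmr and Socs3 passed in that fit, at 3.71 ± 0.45, 1.69 ± 0.20, 3.23 ± 0.61 and 2.26 ± 0.38 (limma adjusted p = 0.00795, 0.00789, 0.0328 and 0.0242). Calls were more frequent among all genes too in that fit, where 2.88% of them passed, against 0.171% with all arrays. In TG, leaving out TG DSS replicate 1 brought the DSS difference of Il6 to 0.03, of Osmr to 0.14 and of Il11 and Il6st to -0.10 each. Socs3 stood at 0.56 and Stat3 at 0.22 without that array, beside 0.82 and 0.28 with it, and Osm, Lif and Il6ra, at -0.17, 0.03 and -0.21, were no nearer to 0.

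**Figure D3:**
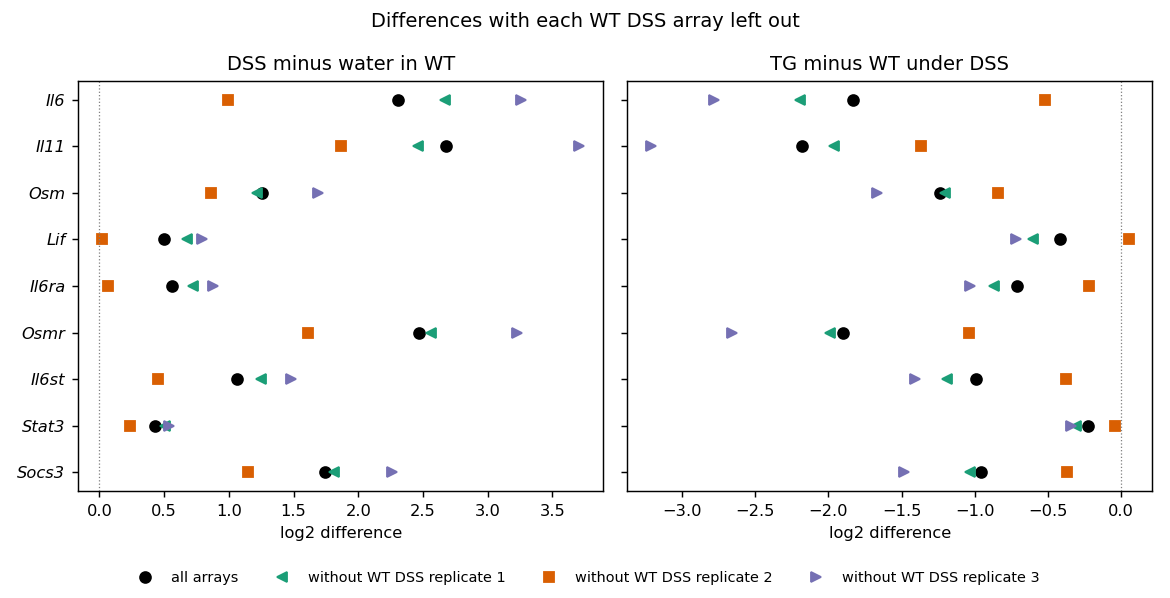
Log2 differences (horizontal axis) are shown for each member with all arrays and with each WT DSS array left out in turn, for DSS minus water in WT (left) and TG minus WT under DSS (right). Leaving out WT DSS replicate 2 brings Lif to 0.02 and Il6ra to 0.07 in WT, while Il11 stays at 1.87 and Osmr at 1.61.

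Markers of some other cell types, but not of all, were high on the arrays where most members were high. The median of 9 neutrophil genes was 1.00, -0.04 and -0.07 in TG DSS replicates 1 to 3, with TG water arrays between -0.12 and -0.01. It was 2.39, 4.47 and 0.65 in WT DSS replicates 1 to 3, with WT water arrays between -0.19 and 0.04, and all 9 genes had a difference above 0 in WT. The medians of 11 macrophage and monocyte genes were 0.95, -0.29 and -0.16 in TG DSS replicates 1 to 3 and 1.13, 2.26 and -0.08 in WT DSS replicates 1 to 3. Those of 10 fibroblast genes were 0.78, -0.33 and -0.16 in TG DSS and 1.08, 2.08 and -0.22 in WT DSS. Lists for T and NK cells, smooth muscle and enteric neurons and glia had medians between -0.41 and 0.14 in TG DSS and between -1.23 and 0.90 in WT DSS, and the B and plasma cell medians spanned -1.14 to 1.05 in TG DSS and -1.44 to 1.57 in WT DSS. WT DSS replicate 2 held the highest endothelial median, 3.21, and the lowest epithelial one. In WT DSS replicate 3, where the macrophage, fibroblast and endothelial medians were -0.08, -0.22 and -0.23 and the epithelial one 0.02, Osmr stood at 0.93, Socs3 at 0.52, Il11 at 0.42 and Il6 and Osm at 0.33 each. The neutrophil median of that array was 0.65, the T and NK cell median 0.31 and the enteric neuron and glia median 0.32, each above the WT water arrays. In TG DSS replicate 3 Socs3 stood at 0.62 beside a neutrophil median of -0.07 and a macrophage median of -0.16. The part of other cells in the members' values was not tested on any array.

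**Figure D4:**
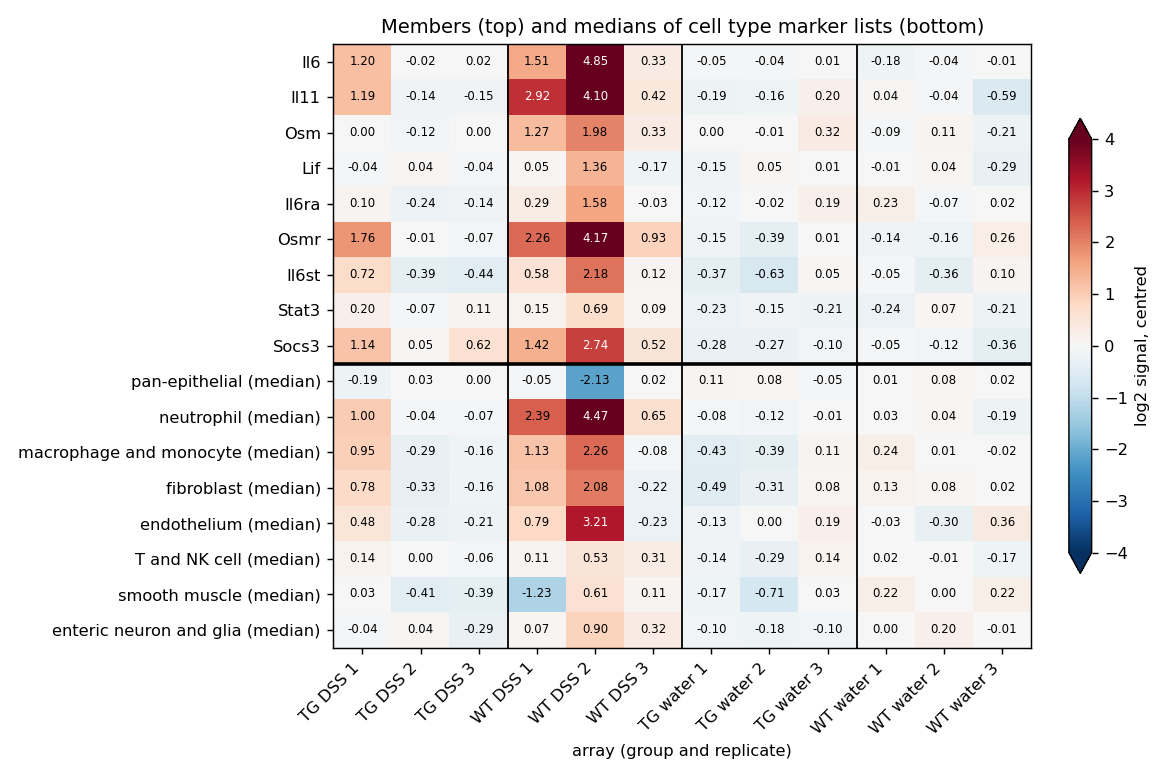
Rows are the 9 members (above the line) and the medians of 8 marker lists (below it), columns are the 12 arrays, and colour and printed figures give the centred log2 signal, with the colour scale ending at 4 in either direction. By the median over the members, the highest arrays are WT DSS replicates 2 and 1 and TG DSS replicate 1 (2.18, 1.27 and 0.72). These arrays also have the highest neutrophil, macrophage and fibroblast medians. Osm, Lif and Il6ra, at 0.00, -0.04 and 0.10 in TG DSS replicate 1, each read higher on a water array.

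Most members were high on the same arrays. As a description, Pearson's r between pairs of members over the 12 arrays had a median of 0.90 over 36 pairs, and of 0.64, ranging from -0.15 to 0.97, without WT DSS replicate 2. Over the 6 water arrays the median was 0.20. For Il11 the most alike other genes were S100a8, a subunit of the neutrophil protein calprotectin, Slfn1 and Slc15a3, with r between 0.99 and 1.00. For Osm they were F10, Cxcl3 and Stx11, and for Socs3 they were Mmp3, Plat and Chrdl2, with r of 0.97 to 0.99. Il6 was most like Lgi2, Ksr1 and Kirrel, Osmr like Ifitm1, Tnfaip2 and Ifi207, and Il6st like Tram2, Axl and Emp3, all at 0.99. Lif had Tbx2, Mdga1 and Apold1 and Il6ra had Nid2, Sema3f and Maf, at 0.98 to 0.99. Without WT DSS replicate 2 these r values were 0.72 to 0.82 for Lif and 0.88 to 0.92 for Il6ra. For the genes most like Il11 they were 0.98 to 0.99 without that array. Stat3 stood apart, with Eif4g3, Septin11 and Cd47 at 0.94 to 0.96. Such values are common on these arrays, since between 63 and 1145 other genes had r above 0.9 with a given member, and they share the same few high arrays.

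Other genes of the pathway had smaller differences in WT than most members. Among all genes 5.7% were higher in WT with an unadjusted p under 0.05, and the share that was lower is not given here. Of 6 other ligands measured, such as Il27, Clcf1 and Ebi3, 0 passed in any comparison, 0 had an unadjusted p under 0.05 in WT and the WT differences lay between -0.14 and 0.45, with Clcf1 at 0.45 ± 0.24. Of 4 other receptor chains, 0 passed and 0 had an unadjusted p under 0.05 in WT, and the WT differences had a median of 0.30, with Il27ra, the receptor of interleukin-27, at 0.46 ± 0.23 and Cntfr at 0.32 ± 0.21 (SE, 3 arrays a group; limma adjusted p = 0.382 and 0.506). The Janus kinases and the proteases that shed receptors, 5 genes in all, had a median of 0.18 in WT, where 0 passed and 1 had an unadjusted p under 0.05. That gene, Adam17, which cleaves Il6ra from the cell surface, stood at 0.45 ± 0.20 and Jak1 at 0.31 ± 0.16. Of 8 other negative regulators 0 passed in WT, 3 had an unadjusted p under 0.05 (2 higher and 1 lower), and Cish, an inhibitor of cytokine signals, was below water in both genotypes without overlap, at -0.55 ± 0.18 in TG and -0.41 ± 0.18 in WT (limma adjusted p = 1 and 0.305). By unadjusted p in limma Cish ranked 61st of all genes in TG and 2622nd in WT. Among 5 other STAT genes 0 passed and 3 were higher in WT with an unadjusted p under 0.05. Stat4, a factor of T and NK cells, came nearest in WT at 0.99 ± 0.20 (limma adjusted p = 0.0765), with 0.73, 1.23 and 0.64 in WT DSS replicates 1 to 3 and -0.07, -0.34 and 0.05 in WT water.

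Of 20 known target genes of STAT3, 1 passed for DSS in WT, Saa3, an acute-phase protein, and 0 passed in the other comparisons. That call depended on the arrays in the fit. For DSS in WT 0 of all genes passed when TG water replicate 1 or 2 or WT water replicate 2 or 3 was left out. Saa3 read 5.55, 6.89 and 3.83 in WT DSS replicates 1 to 3, against -0.29, -0.30 and -0.13 in WT water, a difference of 5.67 ± 0.81 (limma adjusted p = 0.0343). In TG it read 2.77, -0.10 and 0.15 under DSS and 0.09, -0.23 and -0.09 on water. Lcn2, an iron-sequestering antimicrobial protein, read 4.37, 6.36 and 2.48 in WT DSS, against 0.01, -0.20 and -0.22 in WT water (4.54 ± 0.90; limma adjusted p = 0.0716). In WT 12 of the 20 differences were above 0, as were 40.6% of all genes. Their median was 0.15, beside -0.04 over all genes. With an unadjusted p under 0.05, 9 were higher and 1 was lower, where 5.7% of all genes were higher. In TG 1 was higher at that level, where 2.38% of all genes reached it in either direction. For TG minus WT under DSS 1 was higher and 6 were lower, where 5.63% of all genes were lower. Pim1, a survival kinase, read 1.16, 2.67 and 0.86 in WT DSS replicates 1 to 3 and 0.03, -0.04 and -0.06 in WT water, and 0.31, -0.09 and -0.14 in TG DSS replicates 1 to 3 and 0.17, -0.23 and -0.03 in TG water. Its DSS difference was 1.58 ± 0.37 in WT (limma adjusted p = 0.104) and TG minus WT under DSS was -1.54 ± 0.37 (limma adjusted p = 0.132). Lrg1, a secreted glycoprotein of the acute phase, read 3.71, -0.06 and 1.08 in TG DSS replicates 1 to 3, against -0.49, -0.94 and 0.06 in TG water, so the groups overlapped. It read 3.14, 4.36 and 0.53 in WT DSS, against -0.86, -0.30 and -0.10 in WT water. The DSS difference was 2.03 ± 1.03 in TG and 3.10 ± 1.03 in WT, and neither passed (limma adjusted p = 1 and 0.205).

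Target genes did not share 1 order of arrays. Reg3b and Reg3g, antimicrobial lectins of the epithelium that were named after their values were seen, read highest in WT DSS replicate 3, at 6.99 and 5.83, where the members were lowest of the 3 WT DSS arrays. In WT DSS replicates 1 and 2 Reg3b read 1.64 and 1.42, and Reg3g 1.60 and 0.29. Myc, a growth factor-induced transcription factor, was higher in TG DSS than in TG water without overlap, at 0.57, 0.46 and 0.28, against 0.13, -0.07 and -0.18, a difference of 0.48 ± 0.14 that did not pass (SE, 3 arrays a group; limma adjusted p = 1). In WT DSS Myc read 0.07, 0.25 and -0.27.

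**Figure D5:**
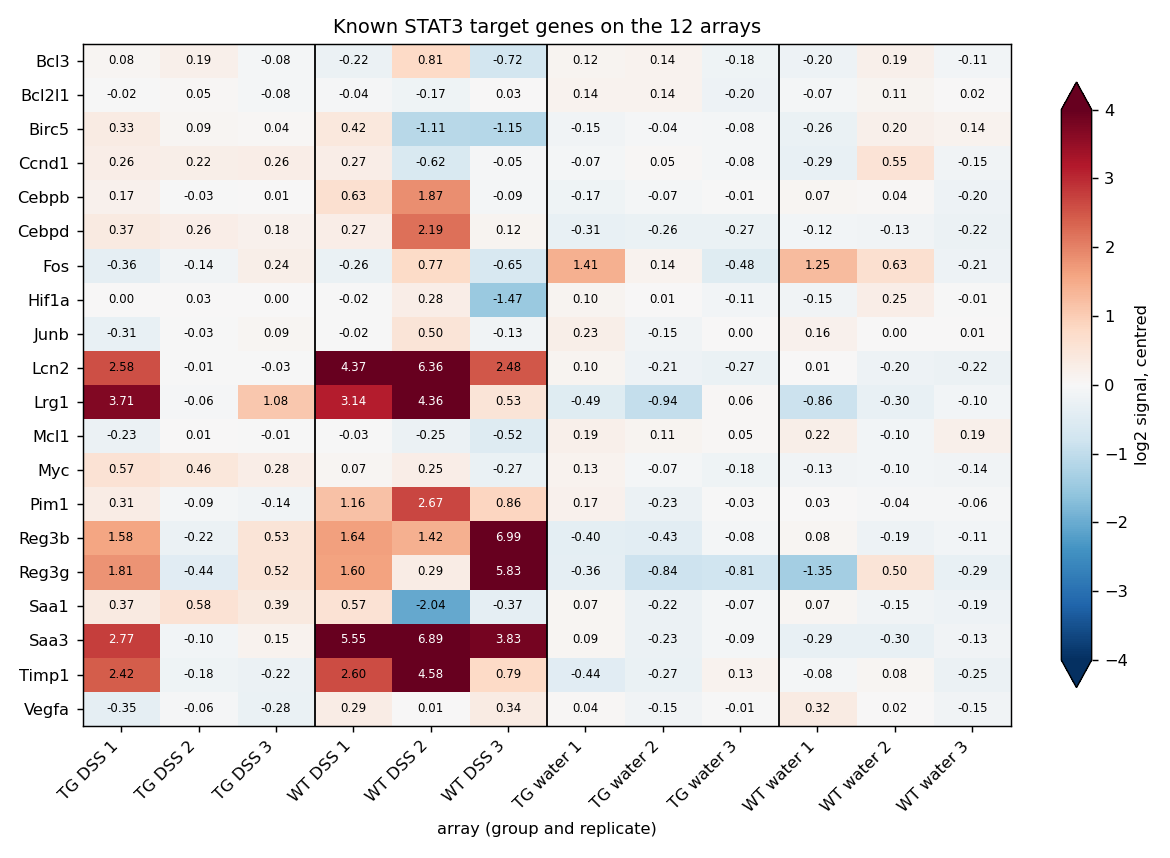
Rows are 20 known STAT3 target genes, columns the 12 arrays, and colour and printed figures give the centred log2 signal, with the colour scale ending at 4 in either direction. Saa3 and Lcn2 are high in TG DSS replicate 1 (2.77 and 2.58) and in all 3 WT DSS arrays, with 3.83 and 2.48 in WT DSS replicate 3, the array where Reg3b and Reg3g peak.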

How the data were processed

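RNA from 12 samples in 4 groups of 3 was hybridised to Affymetrix mouse gene arrays. The deposited values are log2 signals from RMA, run in Affymetrix Expression Console, per the submitters' processing notes. Those sources give no version and no log base, and log2 is the scale RMA returns. Each of 28815 probe sets had a median of 0 over the 12 arrays to within 5e-07, so the values are centred per probe set. The centring was found from the values, and no filter on dim signal could be made. The 21780 probe sets with 1 gene symbol in the platform annotation were averaged into 19935 genes; 1605 with several symbols and 5430 with none were left out. Of the named probe sets, 21689 matched RefSeq GRCm38.p6 by gene identifier.

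All 12 arrays entered 1 limma fit (version 3.58.1, R 4.3.3) that estimates 4 group means (eBayes without trend, not robust), with two-sided p-values adjusted by Benjamini-Hochberg over all genes. Permutation tests were not used, since 3 arrays against 3 give no p under 0.1. No pair of arrays was identical. The code was tested on simulated data. Tables and figures used Python 3.11.15, pandas 2.3.3, numpy 2.4.6 and matplotlib 3.10.9.

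Members, pathway and marker lists and motifs were chosen with earlier results of these data known. All members were named. Of each pathway list, passing genes and up to 3 with the smallest p for DSS in WT and up to 2 in each other comparison could be named, and for each member the 3 genes with the highest Pearson r. Same-numbered arrays of 2 groups had correlated deviations (r above 0.1) in 1 of 18 pairs, so the numbers were not taken as pairs. Alternatives were other samples in the fit, a replicate block, other scaling, weights and thresholds, single probe sets and arrays left out.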

Additional observations from a re-analysis of the deposited data

Results flagged for a closer look

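Osm was set apart because every TG DSS array lay below the TG water mean while every WT DSS array lay above the WT water mean. The deviations were -0.11, -0.23 and -0.11 in TG DSS replicates 1 to 3 and 1.33, 2.04 and 0.39 in WT DSS replicates 1 to 3. The interaction, the TG change less the WT change, was -1.40 ± 0.45 (SE, 3 arrays a group), which did not pass in limma (adjusted p = 0.798). The TG values span 0.12 log2 units among themselves, and the TG difference of -0.15 ± 0.32 was itself not separable from 0. The TG water mean was raised by replicate 3, at 0.32 beside 0.00 and -0.01 in replicates 1 and 2. Without that array the TG difference was -0.04, so the lower position of TG DSS rests on it. No other member and no named pathway gene met the rule that set Osm apart.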

How the results depend on the processing

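No member passed in any comparison with only the compared groups fitted, with the replicate block (0 in each of the 5 comparisons), with arrays centred on their medians, with robust eBayes, with a weight per group, with every probe set on its own or at an adjusted p under 0.01 or 0.1. For DSS minus water in WT, 4 members passed with a weight per array, 2 without WT DSS replicates 2 and 3, and 0 to 4 with 1 array left out. Calls over all genes moved as well, with 754 and 158 of 19935 in the first 2 settings and 0 to 919 with 1 array left out (575 without WT DSS replicate 3 and 919 without WT DSS replicate 1), against 34 with all arrays. For TG minus WT under DSS the counts were 2, 1 and 0 to 2 in the same settings (273, 56 and 0 to 1166 of all genes, against 8 with all arrays), and for the interaction 1 passed without WT DSS replicates 2 and 3, a fit that keeps 1 WT DSS array and takes its spread from the other groups, and in which 22 of all genes passed. At water, 1971 genes and 0 members passed with a weight per array. The weight per array gave WT DSS replicate 2 a weight of 0.105 and WT water replicate 1 one of 7.153. The cause of these changes was not tested.

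Some small differences changed sign. For DSS in TG, Il11 ranged from -0.10 to 0.57, Il6st from -0.10 to 0.48 and Lif from -0.04 to 0.06 with 1 array left out; Lif was -0.02 with a weight per array. For TG minus WT at water, Il11 ranged from -0.05 to 0.26, Lif from -0.04 to 0.12, Il6ra from -0.12 to 0.05, Stat3 from -0.13 to 0.03 and Socs3 from -0.13 to 0.02, and a weight per array gave -0.15 for Il11 and 0.03 for Stat3. Lif under DSS ranged from -0.72 to 0.05 for TG minus WT, and for the interaction Lif ranged from -0.77 to -0.01 and Stat3 from -0.27 to 0.03. Without WT DSS replicate 2 and TG DSS replicate 1 together, a setting chosen after seeing the data, Il11 and Il6st were -0.10 for DSS in TG, and Lif was 0.07 for TG minus WT under DSS and 0.01 for the interaction. Taking the brightest probe set and filtering dim ones need absolute levels and were not run.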

Other observations

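Other cytokines known to act through STAT3, and their receptors, were measured on the same arrays. Of 5 such cytokines measured, among them Il10, Il21 and Il23a, 0 passed in limma in any comparison, 1 had an unadjusted p under 0.05 in WT, and the WT differences had a median of 0.18. Il10, which restrains inflammation, read 0.40, 1.81 and -0.02 in WT DSS replicates 1 to 3, against -0.19, -0.23 and 0.13 in WT water replicates 1 to 3 (0.83 ± 0.37, limma adjusted p = 0.32). Of 8 receptors of these cytokines 0 passed in WT, where 2 were higher and 2 lower with an unadjusted p under 0.05. Among all genes 5.7% were higher in WT at that level, and the share that was lower is not given here. Csf3r, the receptor of granulocyte colony-stimulating factor carried by neutrophils, read 1.45, 3.10 and -0.12 in WT DSS replicates 1 to 3, against 0.08, 0.12 and -0.26 in WT water (1.50 ± 0.62, limma adjusted p = 0.293), and Il10ra, a receptor chain for interleukin-10, read 0.89, 1.40 and -0.13, against 0.08, -0.21 and 0.06 (0.74 ± 0.33, limma adjusted p = 0.324). Csf3, the ligand of Csf3r, stood at 0.62 ± 0.43 in WT. Il22ra1, the epithelial receptor chain for interleukin-22, read -0.10, -2.05 and -0.28 in WT DSS replicates 1 to 3, against 0.17, 0.01 and 0.20 in WT water replicates 1 to 3, without overlap (-0.94 ± 0.41, limma adjusted p = 0.316). Il22ra2, a soluble decoy that binds the same cytokine, read -0.56, -0.80 and -0.64 in WT DSS, against 0.77, 0.69 and 0.68 in WT water, a difference of -1.38 ± 0.31 (SE, 3 arrays a group; limma adjusted p = 0.0993). Its 3 WT DSS arrays were within 0.24 of each other. In TG, Il22ra2 read -0.46, 0.38 and -0.92 under DSS and 0.29, -0.29 and 0.75 on water, so these groups overlapped.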
